A study of Homo sapiens with 9 samples.

Results

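The genes that build the mitotic spindle and part the chromosomes were examined in the colorectal carcinoma line HCT8 and in its drug-resistant derivatives HCT8/5-Fu and HCT8/DDP. A list of 56 gene symbols was used, and all 56 were found among the 19976 genes of the mRNA table. HCT8 is an established human line of colorectal adenocarcinoma. HCT8/5-Fu and HCT8/DDP were derived from it by months of culture in rising amounts of 5-fluorouracil (5-Fu), whose metabolites inhibit thymidylate synthase, or of cisplatin (DDP), which crosslinks DNA, and were then kept in drug. Each line was sequenced in 3 libraries, 9 in all. With 1 derived line for each drug, effects of the drug and of the individual line cannot be told apart. It is not stated whether the 3 replicates were separate cultures, so the spread that enters a p-value may be technical only. Errors written after ± are SE for log2 fold changes and SD over 3 libraries for levels.

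In mitosis, the kinetochore is assembled on the centromere of each chromosome and binds the ends of spindle microtubules. The spindle assembly checkpoint holds back the anaphase-promoting complex until all kinetochores are attached, the chromosomal passenger complex corrects faulty attachments, and kinesins move and sort microtubules. Separase then cleaves cohesin, condensin keeps the chromosomes compact, and cytokinesis divides the cell. Most of these genes are transcribed mainly in G2 and M phase through promoters with a cell cycle genes homology region (CHR) and CCAAT boxes, which the DREAM, MYBL2-MuvB and NF-Y complexes bind. In bulk RNA, fewer cells in G2 and M phase and less mRNA per such cell cannot be told apart.

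The mRNA libraries held 19753035 to 28535882 counts, of which the members took 0.438 to 0.985%. The epithelial identity of the lines was checked on 14 colorectal markers, of which 13 were at 1 CPM (counts scaled to the library total and TMM factor) or more in every library. CEACAM5 stayed under 1 CPM. The sum of the 14 markers was 5669 to 6357 CPM in HCT8, 14600 to 15280 CPM in HCT8/5-Fu and 9959 to 11690 CPM in HCT8/DDP. Markers of fibroblasts, leukocytes, endothelium and erythroid cells summed to 9.246 to 18.99 CPM, with 2 to 4 of 15 at 1 CPM or more, and PTPRC and CD3E were at 0 in all libraries.

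One library stood apart in these genes. The members summed to 8468.9, 9572.2 and 9195.1 CPM in HCT8, to 4099.1, 8524.2 and 8307 CPM in HCT8/5-Fu and to 8137.2, 6936.6 and 7828.6 CPM in HCT8/DDP. HCT8/5-Fu replicate 1 was the lowest library of its line for 55 of 56 members, against 48.6% of the 12401 genes with a mean of at least 1 CPM. The exception was PRC1. The median log2 ratio of that library to the mean of replicates 2 and 3 was -0.982 over the members and -0.0446 over those 12401 genes, and it ranged from -1.65 in PTTG1 to -0.0375 in PRC1. The 38 genes of a DNA replication list moved with it, being lowest in this library in 38 of 38 cases, with sums of 2382.1, 5026.7 and 4965.8 CPM in HCT8/5-Fu against 3780.6 to 4032.3 CPM in HCT8. In the other lines, HCT8/DDP replicate 2 was lowest for 49 of 56 members and 30 of 38 replication genes (31.8% of all genes). HCT8 replicate 1 was lowest for 40 of 56 members (42% of all genes) but for 11 of 38 replication genes, and had the highest replication sum of its line. Whether HCT8/5-Fu replicate 1 came from a culture that divided less was not tested. Counts on HCT8/5-Fu are therefore given with and without its replicate 1, as are the values named below of genes whose call depended on it.

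**Figure D1:**
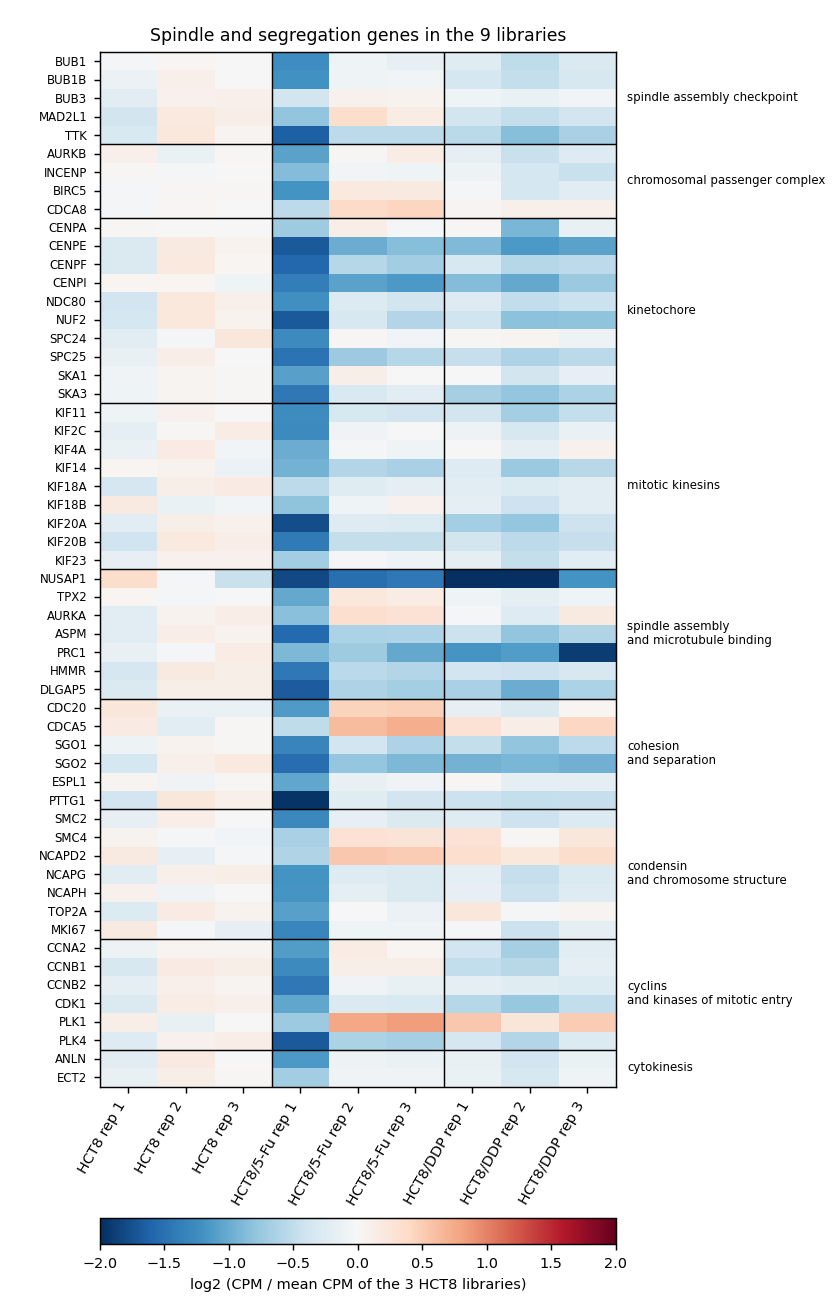
Heat map of log2 (CPM over the mean CPM of the 3 HCT8 libraries) for the 56 members (rows, by role) in the 9 libraries (columns). Colours end at -2 and 2. The column of HCT8/5-Fu replicate 1 is below the HCT8 mean in every row, with sums of 4099.1 CPM against 8524.2 and 8307 CPM in the other libraries of that line, whereas PLK1, CDCA5 and NCAPD2 are above it in the remaining columns of both resistant lines.

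Per length of transcript, the members were among the better expressed genes. The deposited FPKM (reads scaled to transcript length and library size) in HCT8 had a median of 25.5 over the members against 6.42 over the genes tested in HCT8/DDP, and 53 of 56 members were above the latter value. The highest was TPX2, which targets Aurora A to spindle microtubules, at 128 ± 7.58 FPKM (SD, n = 3) in HCT8, 107 ± 37.6 FPKM in HCT8/5-Fu and 109 ± 3.51 FPKM in HCT8/DDP. TOP2A, the topoisomerase that untangles sister DNA, was at 96 ± 12.2 FPKM in HCT8, and MKI67, whose product coats mitotic chromosomes, at 95.9 ± 14.4 FPKM, so that these neighbours in the order did not differ beyond their spread. TPX2 stayed first and TOP2A second in all 3 lines. At the low end, ESPL1, which encodes separase, was at 6.35 ± 0.481 FPKM in HCT8. Far below it were NUSAP1 at 0.871 ± 0.264 FPKM and PRC1 at 0.584 ± 0.0496 FPKM in HCT8.

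**Figure D2:**
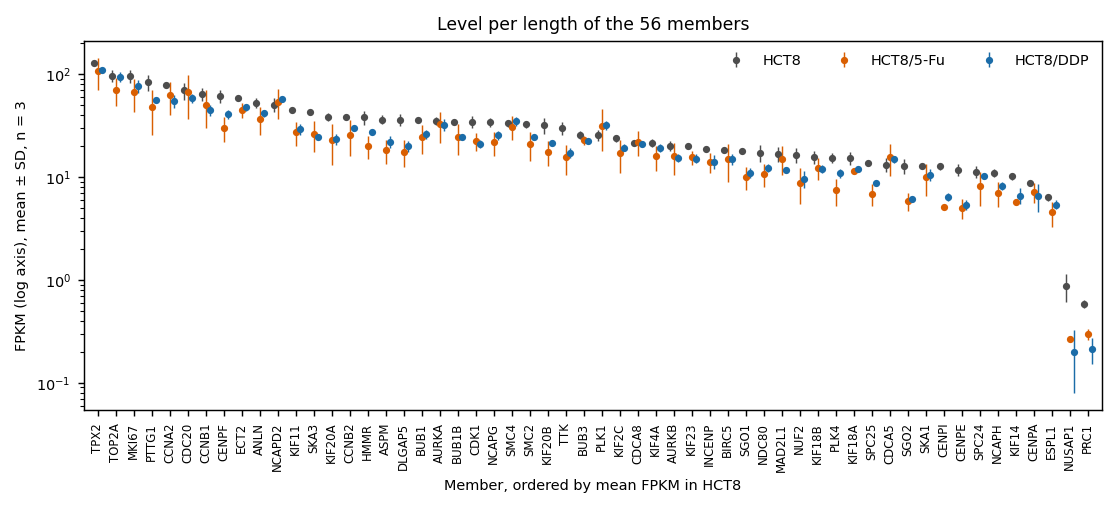
FPKM (log axis) of the 56 members, as mean ± SD of 3 libraries per line, ordered by the mean in HCT8. Levels run from 128 FPKM in TPX2 to 6.35 FPKM in ESPL1, and NUSAP1 and PRC1 lie apart under 1 FPKM.

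NUSAP1 and PRC1 encode microtubule bundling proteins, and their counts are uncertain because another listed gene on the same strand spans each. NUSAP1 (ENSG00000137804, chr15:41320794-41381050, plus strand) is covered over 99.9% of its span by AC087721.2, which had 0 counts in all 9 libraries. PRC1 (ENSG00000198901, chr15:90966040-90995629, minus strand) is covered over 99.5% by AC068831.7. The latter had 234, 285 and 340 counts in HCT8, 105, 211 and 201 counts in HCT8/5-Fu and 273, 189 and 235 counts in HCT8/DDP, which is above PRC1 itself in every library. How reads shared by such pairs were assigned is not stated, so the levels of NUSAP1 and PRC1 cannot be told apart from those of their neighbours. CENPA shares 46.1% of its span with SLC35F6 and BUB1B up to 6.17% with PAK6 on the same strand, and KIF4A and PTTG1 have near-identical copies elsewhere in the genome. Positions are those of the mRNA table, and 53 of 56 members lay at the RefSeq positions of GRCh38.p14, with at least 90% of the RefSeq interval inside that of the table.

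The promoters of the members carried the motifs of this gene class. RefSeq promoters of GRCh38.p14, 250 bases before to 50 bases after each start, were matched by symbol to 51 of 56 members. No window was matched for BUB3, TTK, BIRC5, TPX2 and AURKA. The core of the CHR, TTTGAA on either strand, was in 37 of 51 members (72.5%) against 18.2% of all 27305 genes with a window. CCAAT on either strand was in 38 of 51 members (74.5%) against 39.7%, 2 or more copies in 23 (45.1%) against 12.9%, and both motifs in 1 window in 27 (52.9%) against 7.26%. In the members, CHR matches were most frequent from 50 bases before the start to 25 bases after it. CCAAT matches were most frequent from 100 to 50 bases before the start. In the bin from 25 bases before the start to the start, 21.7% of the members' windows had a CHR match against 1.17% of all windows, and in the bin from 75 to 50 bases before it 41.7% had a CCAAT match against 7.62%.

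The 5 promoters printed here were chosen among members with both motifs, to show them in genes with different calls: PLK1 and NCAPD2, which rose in HCT8/DDP, ASPM and DLGAP5, which fell in both lines, and CCNB2, which passed the test in neither. Each stretch runs from 200 bases before the start to the first 20 bases of the transcript. Capitals mark the CHR core (TTTGAA, or TTCAAA on the other strand) and the CCAAT box (CCAAT, or ATTGG on the other strand), and no motifs overlap in them.
PLK1 (chr16:23678689-23678908, plus strand): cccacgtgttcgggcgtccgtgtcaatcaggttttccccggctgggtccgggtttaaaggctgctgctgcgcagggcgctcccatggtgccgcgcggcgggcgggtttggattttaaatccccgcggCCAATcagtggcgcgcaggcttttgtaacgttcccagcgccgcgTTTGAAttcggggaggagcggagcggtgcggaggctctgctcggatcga
NCAPD2 (chr12:6493902-6494121, plus strand): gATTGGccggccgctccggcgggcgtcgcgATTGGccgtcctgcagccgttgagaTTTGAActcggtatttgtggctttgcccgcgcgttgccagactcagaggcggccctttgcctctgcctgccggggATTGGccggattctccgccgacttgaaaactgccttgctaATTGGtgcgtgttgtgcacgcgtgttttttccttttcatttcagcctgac
ASPM (chr1:197146650-197146869, minus strand): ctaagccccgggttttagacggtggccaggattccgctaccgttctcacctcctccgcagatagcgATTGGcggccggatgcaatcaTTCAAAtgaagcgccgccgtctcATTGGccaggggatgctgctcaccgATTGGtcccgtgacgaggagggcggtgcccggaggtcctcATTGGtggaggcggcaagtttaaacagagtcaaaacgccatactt
DLGAP5 (chr14:55191566-55191785, minus strand): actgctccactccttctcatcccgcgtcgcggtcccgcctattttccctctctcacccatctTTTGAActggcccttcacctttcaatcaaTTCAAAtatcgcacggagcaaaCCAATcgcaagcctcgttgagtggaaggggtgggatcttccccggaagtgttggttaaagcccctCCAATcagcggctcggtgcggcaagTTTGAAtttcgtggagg
CCNB2 (chr15:59104946-59105165, plus strand): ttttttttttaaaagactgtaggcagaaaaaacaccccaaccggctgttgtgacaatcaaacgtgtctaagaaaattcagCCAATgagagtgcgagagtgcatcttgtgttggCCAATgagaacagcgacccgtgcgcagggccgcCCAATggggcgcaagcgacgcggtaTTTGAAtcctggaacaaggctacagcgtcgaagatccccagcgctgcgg
PLK1 and CCNB2 both have a CHR core that begins 29 bases before the start, and CCNB2 shows 3 CCAAT boxes upstream of it where PLK1 shows 1. NCAPD2 and ASPM each show 4 CCAAT boxes and 1 CHR core. Over the members, the CHR core was in 22 of 33 (66.7%) that fell in HCT8/DDP and in 15 of 18 (83.3%) that did not fall. CDCA5, which rose in HCT8/DDP, and CENPE and CENPI, which fell in both lines, had neither motif in the window. A match describes letters in the window and not a bound site.

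**Figure D3:**
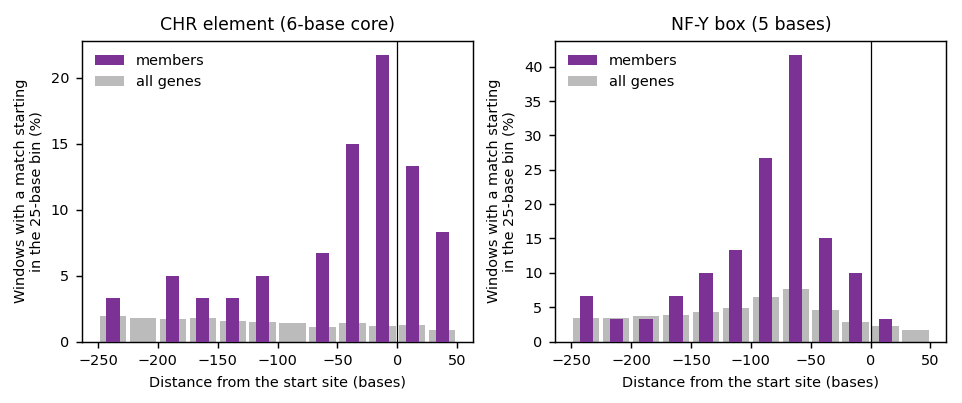
Share of promoter windows (%) in which a CHR core (left) or an NF-Y box, the CCAAT motif (right), begins in each 25-base bin, against the distance from the start site in bases. Purple bars are the 60 windows of the 51 matched members and grey bars all 35116 windows; the members peak at 21.7% just before the start for the CHR core and at 41.7% between 75 and 50 bases before it for the CCAAT box.

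The first question was how these genes differed between each resistant line and its parent. In HCT8/5-Fu against HCT8, none of the 56 members rose and 14 fell, while 20.4% of the 13228 genes tested rose and 18.3% fell (edgeR quasi-likelihood test, Benjamini-Hochberg adjusted p under 0.05 over all genes). The members that fell were TTK, CENPE, CENPF, CENPI, SPC25, KIF14, NUSAP1, ASPM, PRC1, HMMR, DLGAP5, SGO1, SGO2 and PLK4. The median log2 fold change was -0.395 over the members and -0.00422 over all genes. At an unadjusted p under 0.05, 20 members passed, all lower, against 48.2% of all genes in either direction. DESeq2 called 0 members higher and 18 lower, against 21.8% and 21.2% of all genes. The groups did not overlap for 23 of 56 members, against 51.8% of all genes.

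Without HCT8/5-Fu replicate 1, members passed the test in both directions. Of 56, 6 rose, namely CDCA8, CDC20, CDCA5, SMC4, NCAPD2 and PLK1, and 19 fell, while 28.5% of 13418 genes rose and 27.7% fell. The 19 were the 14 members named above with NUF2, SKA3, KIF11, KIF20B and NCAPH. The median over the members moved to -0.119, and the groups did not overlap for 32 of 56 members, against 73.4% of all genes. With all HCT8/5-Fu libraries kept, the count that fell was 5 without HCT8 replicate 2 (11.6% of all genes), 6 without HCT8 replicate 3 (11.5%) and 24 with library totals in place of TMM factors (21.9%). The first 2 of these counts were not above the share of all genes. CENPE, CENPI, KIF14, NUSAP1 and SGO2 fell in each of the 12 other settings tried, and the other 9 lost the call without HCT8 replicate 2. PRC1 lost it in 5 of the 12.

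In HCT8/DDP against HCT8, 3 members rose (CDCA5, NCAPD2 and PLK1) and 34 fell, where 27% of 13373 genes rose and 25.5% fell. The share of members that fell was thus above that of all genes and the share that rose below it. The median log2 fold change was -0.31 over the members and -0.0143 over all genes, and the groups did not overlap for 34 of 56 members, against 59.5% of all genes. Putting all 9 libraries in 1 fit lets HCT8/5-Fu replicate 1 enter the estimate of the spread. In that fit 0 members rose and 13 fell, against 22.7% and 19.3% of all genes. The share that fell was then near that of all genes, and the share that rose was still below it. The same fit without that library gave 3 and 35, against 27.9% and 26.6%. The count that fell was 21 without HCT8 replicate 3 (20.4% of all genes) and 18 without HCT8/DDP replicate 2 (20.3%). A single member rose when replicate 2 or 3 of HCT8, or replicate 1 or 3 of HCT8/DDP, was left out (22.5 to 24.3% of all genes). With library totals 1 rose and 41 fell (20.6% and 33% of all genes). The 13 members that fell in all 12 other settings were TTK, CENPE, CENPI, SPC25, SKA3, KIF14, NUSAP1, ASPM, PRC1, DLGAP5, SGO1, SGO2 and CDK1. The 3 rises and all other falls were lost with all 9 libraries in 1 fit. The falls of MAD2L1, AURKB, INCENP, NDC80, KIF20B, SMC2 and CCNB1 were lost in 5 of the 12, and those of KIF18B, KIF23, HMMR and NCAPG in 6.

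Scaling also moved the split over all genes. With library totals the median over all genes became -0.107 in HCT8/5-Fu and -0.134 in HCT8/DDP, and the counts of higher and lower genes went from 2694 and 2424 to 2036 and 2891 in HCT8/5-Fu and from 3613 and 3406 to 2751 and 4411 in HCT8/DDP. Relative to these medians the members' own median lay 0.391 and 0.295 log2 units lower with TMM factors and 0.416 and 0.292 lower with library totals. Both comparisons used the same HCT8 libraries. Their calls are therefore given side by side and were not taken as independent of each other.

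**Figure D4:**
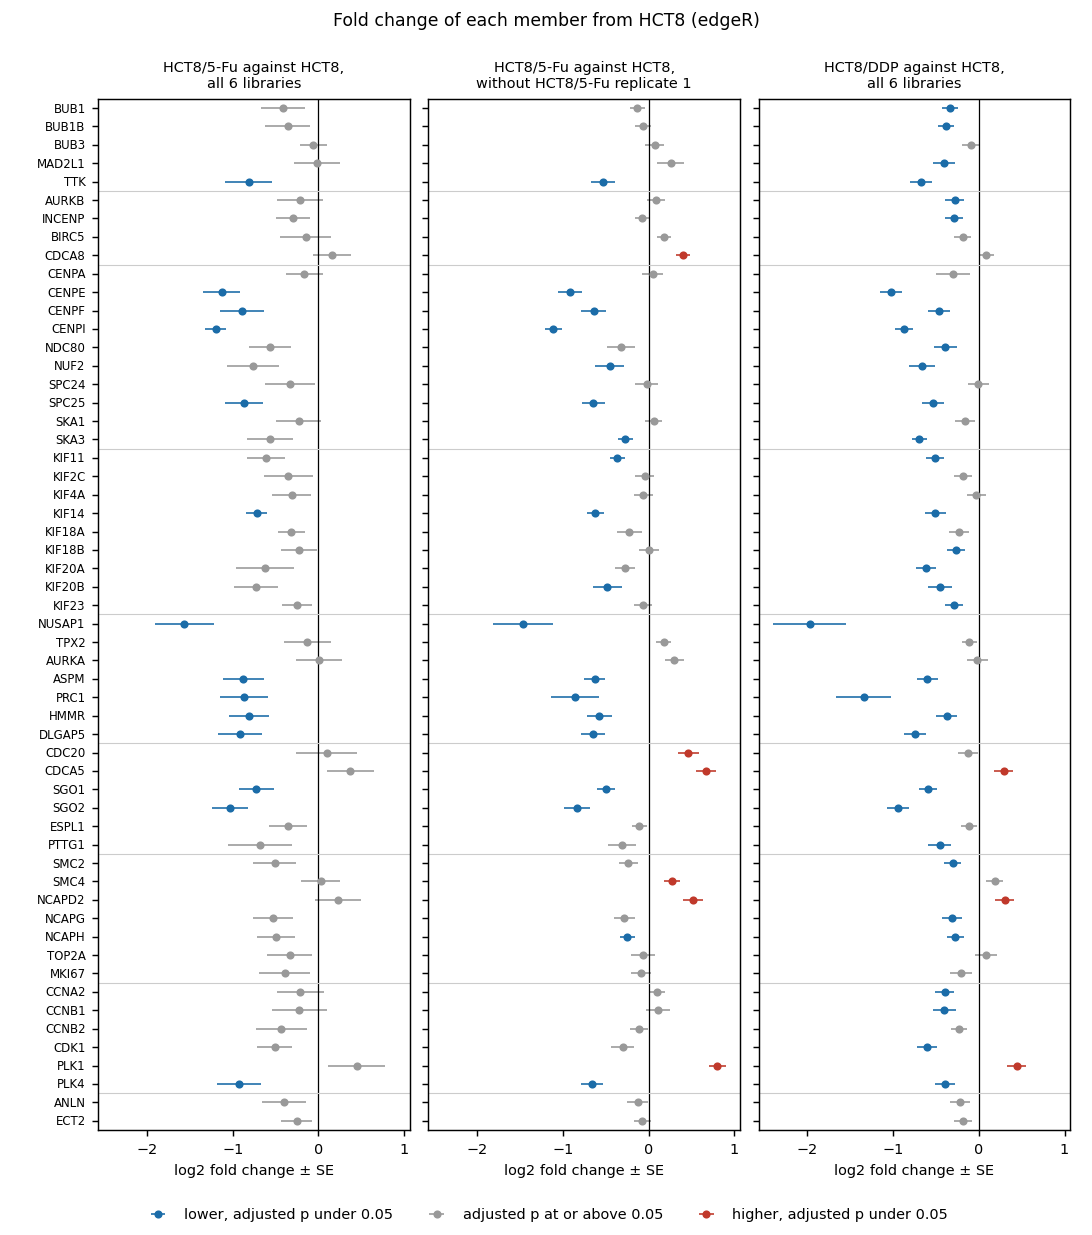
Log2 fold change ± SE of the 56 members (rows, by role) in HCT8/5-Fu against HCT8 with all 6 libraries (left) and without HCT8/5-Fu replicate 1 (middle), and in HCT8/DDP against HCT8 (right); blue and red points passed an adjusted p of 0.05. The left panel has 14 blue and 0 red points, the middle 19 and 6, and the right 34 and 3.

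Kinetochore genes that passed the test all fell. Of the 10 kinetochore members, 4 fell in HCT8/5-Fu (6 without replicate 1) and 7 in HCT8/DDP. Of all genes, 18.3% (27.7% without replicate 1) and 25.5% fell in these comparisons. The roles hold 2 to 10 members each, so counts by role are given as description and were not tested against each other. CENPE, a kinesin that carries chromosomes along the spindle to its equator, was at 91.5, 127 and 117 CPM in HCT8, 34.9, 56.4 and 62.3 CPM in HCT8/5-Fu and 60.8, 50.5 and 53.3 CPM in HCT8/DDP. Every resistant library was below every HCT8 library. The log2 fold change of CENPE was -1.13 ± 0.21 (adjusted p = 0.00359) in HCT8/5-Fu and -1.02 ± 0.12 (adjusted p = 1.99e-05) in HCT8/DDP. CENPI, a scaffold of the inner kinetochore, was at 53.8, 53.5 and 49.1 CPM in HCT8, 19.9, 24.9 and 23.4 CPM in HCT8/5-Fu and 28.7, 25.6 and 31.2 CPM in HCT8/DDP, with no overlap between HCT8 and either line. Its log2 fold change of -1.20 ± 0.13 (adjusted p = 0.000159) in HCT8/5-Fu and -0.87 ± 0.10 (adjusted p = 1.91e-05) in HCT8/DDP had small errors, and HCT8/5-Fu replicate 1 was close to the other libraries of its line. SKA3, part of the complex that tracks microtubule ends, was at 114, 126 and 123 CPM in HCT8, 44.7, 98.4 and 103 CPM in HCT8/5-Fu and 76, 70.6 and 77.8 CPM in HCT8/DDP. All HCT8/DDP libraries were low and HCT8/5-Fu replicate 1 was lower still, and the log2 fold change was -0.70 ± 0.088 (adjusted p = 3.01e-05) in HCT8/DDP, -0.57 ± 0.27 (adjusted p = 0.123) in HCT8/5-Fu and -0.27 ± 0.089 (adjusted p = 0.0288) without that library. Of the NDC80 complex, which grips the microtubule, SPC25 fell in both lines, NDC80 and NUF2 fell in HCT8/DDP, and SPC24 had a log2 fold change of -0.33 ± 0.29 in HCT8/5-Fu and -0.0053 ± 0.12 in HCT8/DDP with overlapping groups. The log2 fold change of NUF2 in HCT8/5-Fu was -0.76 ± 0.30 (adjusted p = 0.0756) with replicate 1 and -0.46 ± 0.17 (adjusted p = 0.0435) without it. CENPF fell in both lines, whereas CENPA, the histone that marks the centromere, and SKA1 passed the test in neither.

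**Figure D5:**
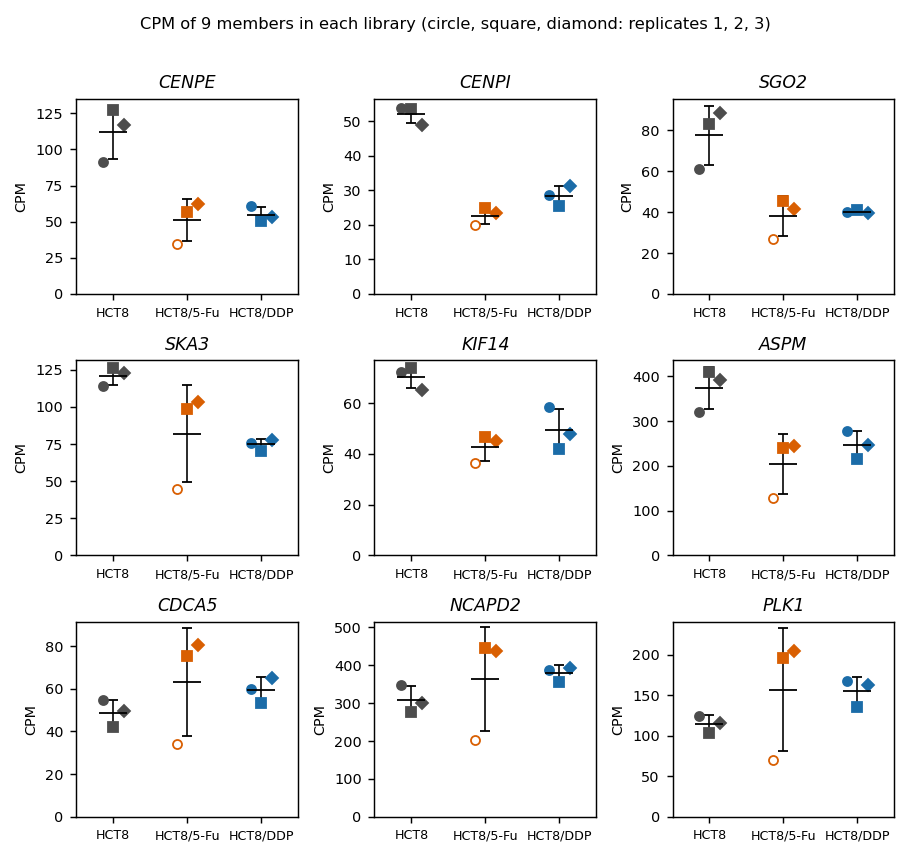
CPM (axis from 0) of 9 members in each library, with circles, squares and diamonds for replicates 1, 2 and 3, the open circle for HCT8/5-Fu replicate 1, and bars for the mean ± SD of 3 libraries. CENPE, CENPI, SGO2, KIF14 and ASPM are lower in every resistant library than in every HCT8 library, SKA3 likewise, and CDCA5, NCAPD2 and PLK1 are higher in HCT8/5-Fu replicates 2 and 3 but not in replicate 1.

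Among the 5 checkpoint genes, 1 fell in HCT8/5-Fu and 4 in HCT8/DDP, against 18.3% and 25.5% of all genes. The share in HCT8/5-Fu was thus near that of all genes. TTK, the kinase that starts checkpoint signalling at unattached kinetochores, was at 105, 149 and 134 CPM in HCT8, 41.6, 90.1 and 89.4 CPM in HCT8/5-Fu and 89, 71.7 and 82.2 CPM in HCT8/DDP. Its groups did not overlap, and it fell, with log2 fold changes of -0.81 ± 0.27 (adjusted p = 0.0427) in HCT8/5-Fu and -0.67 ± 0.13 (adjusted p = 0.000774) in HCT8/DDP. The call in HCT8/5-Fu was lost when any single HCT8 library was left out, and it held without HCT8/5-Fu replicate 1 at -0.53 ± 0.14 (adjusted p = 0.0121). BUB1B, whose product BubR1 belongs to the inhibitor of the anaphase-promoting complex, was at 135, 158 and 148 CPM in HCT8, 63.4, 139 and 142 CPM in HCT8/5-Fu and 115, 106 and 118 CPM in HCT8/DDP. All HCT8/DDP libraries lay below HCT8, with a log2 fold change of -0.38 ± 0.094 (adjusted p = 0.00452), and in HCT8/5-Fu only replicate 1 was far from HCT8 (-0.36 ± 0.26, adjusted p = 0.309). BUB1, a kinase of the same pathway, was at 207, 219 and 212 CPM in HCT8, 90.3, 200 and 190 CPM in HCT8/5-Fu and 180, 150 and 175 CPM in HCT8/DDP, with -0.33 ± 0.10 (adjusted p = 0.011) in HCT8/DDP, a call lost without HCT8/DDP replicate 2. In HCT8/5-Fu its log2 fold change was -0.42 ± 0.26, and -0.13 ± 0.086 without replicate 1. MAD2L1 also fell in HCT8/DDP, and BUB3 had log2 fold changes of -0.061 ± 0.16 and -0.09 ± 0.10 in the respective lines without passing the test.

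Of the 4 members of the chromosomal passenger complex, none passed the test in HCT8/5-Fu and 2 fell in HCT8/DDP. Of all genes, 20.4% rose and 18.3% fell in HCT8/5-Fu, and 27% and 25.5% did so in HCT8/DDP. AURKB, the kinase of the complex, was at 45.9, 39.1 and 43.9 CPM in HCT8, 20.4, 43.5 and 47.6 CPM in HCT8/5-Fu and 38.3, 31.6 and 36 CPM in HCT8/DDP. In HCT8/DDP it fell, with a log2 fold change of -0.28 ± 0.11 (adjusted p = 0.0457), a call that was lost without replicate 1 or 3 of HCT8 or replicate 2 or 3 of HCT8/DDP. INCENP, the scaffold, was at 80.8, 77.2 and 80.2 CPM in HCT8, 43.5, 76.3 and 74.7 CPM in HCT8/5-Fu and 74.4, 62 and 58 CPM in HCT8/DDP and fell in HCT8/DDP, with a log2 fold change of -0.29 ± 0.10 (adjusted p = 0.0315). That call was lost without replicate 2 or 3 of HCT8 or replicate 2 or 3 of HCT8/DDP. BIRC5, which encodes survivin, was at 64.3, 67.3 and 67.7 CPM in HCT8, 28.9, 76.2 and 74.9 CPM in HCT8/5-Fu and 65.4, 52.2 and 57.3 CPM in HCT8/DDP. The 2 upper HCT8/5-Fu libraries were above every HCT8 library and replicate 1 was below them all, and its log2 fold change of -0.15 ± 0.30 (adjusted p = 0.718) became 0.18 ± 0.082 (adjusted p = 0.0899) without that library. CDCA8, or borealin, rose in HCT8/5-Fu only in the fit without replicate 1, with a log2 fold change of 0.40 ± 0.084 (adjusted p = 0.00374).

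Of the 9 mitotic kinesins, KIF14 alone fell in HCT8/5-Fu, KIF11, KIF14 and KIF20B did so without replicate 1, and 6 fell in HCT8/DDP. KIF14, which recruits citron kinase to the midbody, was at 72.2, 73.8 and 65.2 CPM in HCT8, 36.5, 46.7 and 45.1 CPM in HCT8/5-Fu and 58.6, 42.1 and 47.7 CPM in HCT8/DDP. The groups did not overlap and its log2 fold change was -0.72 ± 0.13 (adjusted p = 0.00231) in HCT8/5-Fu and -0.51 ± 0.12 (adjusted p = 0.00324) in HCT8/DDP. KIF11, or Eg5, which pushes the spindle poles apart, was at 201, 227 and 215 CPM in HCT8, 89.3, 171 and 164 CPM in HCT8/5-Fu and 166, 133 and 153 CPM in HCT8/DDP. It fell in HCT8/DDP, with a log2 fold change of -0.51 ± 0.10 (adjusted p = 0.00124), and in HCT8/5-Fu the log2 fold change was -0.61 ± 0.22 (adjusted p = 0.057) with replicate 1 and -0.36 ± 0.092 (adjusted p = 0.00959) without it. KIF20A, a kinesin of the central spindle, was at 121, 153 and 150 CPM in HCT8, 41.3, 118 and 117 CPM in HCT8/5-Fu and 87.8, 82.8 and 106 CPM in HCT8/DDP. Its HCT8/DDP libraries were all below HCT8 (-0.61 ± 0.12, adjusted p = 0.000856), and HCT8/5-Fu did not pass the test (-0.62 ± 0.33, adjusted p = 0.17). KIF18B, KIF20B and KIF23 also fell in HCT8/DDP, KIF18B and KIF23 with the call lost in 6 of the 12 other settings. In HCT8/5-Fu the log2 fold change of KIF20B was -0.73 ± 0.26 (adjusted p = 0.0504) with replicate 1 and -0.48 ± 0.17 (adjusted p = 0.036) without it. KIF2C, KIF4A and KIF18A passed the test in no comparison with HCT8, with log2 fold changes of -0.18 ± 0.10, -0.027 ± 0.11 and -0.23 ± 0.12 in HCT8/DDP.

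The genes of spindle assembly and microtubule binding fell in 5 of 7 cases in both lines, against 18.3% of all genes in HCT8/5-Fu and 25.5% in HCT8/DDP. ASPM, which focuses spindle poles and is mutated in primary microcephaly, was at 321, 409 and 393 CPM in HCT8, 128, 241 and 244 CPM in HCT8/5-Fu and 278, 216 and 246 CPM in HCT8/DDP. Every resistant library was below every HCT8 library. The log2 fold change of ASPM was -0.88 ± 0.24 (adjusted p = 0.018) in HCT8/5-Fu, where the call was lost without HCT8 replicate 2 or 3, and -0.60 ± 0.12 (adjusted p = 0.00123) in HCT8/DDP. DLGAP5, or HURP, which stabilizes kinetochore fibres, was at 101, 135 and 135 CPM in HCT8, 39, 81.2 and 77.1 CPM in HCT8/5-Fu and 79.2, 62.6 and 79.6 CPM in HCT8/DDP. The groups did not overlap, with log2 fold changes of -0.92 ± 0.26 (adjusted p = 0.0205), lost without HCT8 replicate 2 or 3, and -0.74 ± 0.13 (adjusted p = 0.00039). NUSAP1 had 82, 70 and 53 counts in HCT8, 18, 28 and 29 counts in HCT8/5-Fu and 14, 12 and 33 counts in HCT8/DDP. Its log2 fold change was the largest fall among the members at -1.56 ± 0.34 (adjusted p = 0.00702) and -1.97 ± 0.43 (adjusted p = 0.00197), at levels of 3.8, 2.93 and 2.18 CPM in HCT8, 0.849, 1.05 and 1.1 CPM in HCT8/5-Fu and 0.528, 0.438 and 1.3 CPM in HCT8/DDP. HMMR and PRC1 also fell in both lines, but HMMR lost the call without replicate 2 or 3 of HCT8 in HCT8/5-Fu and in 6 of 12 other settings in HCT8/DDP, and PRC1 lost it in 5 of 12 in HCT8/5-Fu. The log2 fold changes of PRC1 were -0.87 ± 0.28 and -1.34 ± 0.32, and those of its neighbour AC068831.7 were -0.844 (adjusted p = 0.0158) and -0.475 (adjusted p = 0.0429). TPX2 and AURKA, the Aurora A kinase it activates, passed the test in neither line.

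Cohesion and separation genes went both ways. SGO2, of the shugoshin family that shields centromeric cohesin, was at 60.9, 82.8 and 88.5 CPM in HCT8, 27, 45.4 and 41.7 CPM in HCT8/5-Fu and 40.2, 40.9 and 39.6 CPM in HCT8/DDP. The HCT8/DDP libraries were nearly equal and all resistant libraries lay below HCT8, with log2 fold changes of -1.03 ± 0.21 (adjusted p = 0.00511) in HCT8/5-Fu and -0.94 ± 0.13 (adjusted p = 4.89e-05) in HCT8/DDP. SGO1, of the same family, was at 59.6, 67.2 and 65.2 CPM in HCT8, 25.7, 49.1 and 41.7 CPM in HCT8/5-Fu and 46.1, 37.1 and 44.5 CPM in HCT8/DDP and fell, with log2 fold changes of -0.72 ± 0.21 (adjusted p = 0.0233) and -0.59 ± 0.10 (adjusted p = 0.000498). Leaving out any single HCT8 library ended the call in HCT8/5-Fu. PTTG1, or securin, the inhibitor of separase, was at 121, 184 and 169 CPM in HCT8, 40.8, 133 and 122 CPM in HCT8/5-Fu and 117, 113 and 115 CPM in HCT8/DDP. It had the deepest drop in HCT8/5-Fu replicate 1 of all members, fell in HCT8/DDP (-0.46 ± 0.13, adjusted p = 0.0108, lost without HCT8 replicate 2) and did not pass the test in HCT8/5-Fu (-0.68 ± 0.37, adjusted p = 0.178). CDCA5, or sororin, which locks cohesin on replicated chromosomes, was at 54.6, 42.3 and 49.5 CPM in HCT8, 34.2, 75.4 and 80.5 CPM in HCT8/5-Fu and 59.8, 53.6 and 65.2 CPM in HCT8/DDP. HCT8/DDP overlapped HCT8 by 1 library and rose, with a log2 fold change of 0.29 ± 0.11 (adjusted p = 0.0468), a call lost in 7 of 12 other settings, DESeq2 among them. In HCT8/5-Fu the log2 fold change of CDCA5 was 0.37 ± 0.28 (adjusted p = 0.314), and 0.67 ± 0.12 (adjusted p = 0.00137) without replicate 1. ESPL1 passed the test in neither line.

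Condensin showed the same mixture within 1 complex. NCAPD2, a regulatory subunit of condensin I, was at 349, 276 and 300 CPM in HCT8, 204, 446 and 438 CPM in HCT8/5-Fu and 388, 355 and 394 CPM in HCT8/DDP. It was above every HCT8 library in HCT8/DDP and in HCT8/5-Fu replicates 2 and 3, with log2 fold changes of 0.30 ± 0.11 (adjusted p = 0.0308) in HCT8/DDP, 0.23 ± 0.27 (adjusted p = 0.527) in HCT8/5-Fu and 0.52 ± 0.11 (adjusted p = 0.0046) without replicate 1. The call in HCT8/DDP was lost without replicate 2 or 3 of HCT8 or replicate 1 or 3 of HCT8/DDP. It was also lost with library totals and with all 9 libraries in 1 fit. NCAPH, the kleisin of the same complex, was at 71.6, 63.8 and 66.6 CPM in HCT8, 29.6, 58.6 and 55.2 CPM in HCT8/5-Fu and 60.2, 50 and 56.4 CPM in HCT8/DDP. All resistant libraries were below HCT8, and the log2 fold change was -0.28 ± 0.10 (adjusted p = 0.0317) in HCT8/DDP, lost without replicate 3 of HCT8 or replicate 2 or 3 of HCT8/DDP, and -0.50 ± 0.22 (adjusted p = 0.109) in HCT8/5-Fu with replicate 1 and -0.25 ± 0.092 (adjusted p = 0.0463) without it. SMC2, an ATPase core subunit, was at 179, 220 and 201 CPM in HCT8, 82.2, 178 and 163 CPM in HCT8/5-Fu and 169, 150 and 165 CPM in HCT8/DDP. It fell in HCT8/DDP, with a log2 fold change of -0.31 ± 0.10 (adjusted p = 0.0223), a call lost without replicate 2 or 3 of HCT8 or replicate 2 or 3 of HCT8/DDP, and its log2 fold change of -0.51 ± 0.25 in HCT8/5-Fu did not pass the test. NCAPG fell in HCT8/DDP, and SMC4, the partner of SMC2, rose in HCT8/5-Fu only without replicate 1, with a log2 fold change of 0.27 ± 0.088 (adjusted p = 0.0272). TOP2A and MKI67 passed the test in no comparison with HCT8.

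Of the 6 kinases and cyclins of mitotic entry, 1 rose (PLK1) and 4 fell in HCT8/DDP, against 27% and 25.5% of all genes. In HCT8/5-Fu 0 rose and 1 fell, against 20.4% and 18.3%. Without replicate 1, 1 rose and 1 fell there, against 28.5% and 27.7%. PLK1, a kinase that acts from entry to cytokinesis, was at 125, 104 and 116 CPM in HCT8, 69.5, 196 and 205 CPM in HCT8/5-Fu and 168, 136 and 163 CPM in HCT8/DDP. All HCT8/DDP libraries and HCT8/5-Fu replicates 2 and 3 were above HCT8, and HCT8/5-Fu replicate 1 was below it. The log2 fold change of PLK1 was 0.44 ± 0.11 (adjusted p = 0.00407) in HCT8/DDP, 0.45 ± 0.34 (adjusted p = 0.322) in HCT8/5-Fu and 0.80 ± 0.10 (adjusted p = 0.00025) without replicate 1. The PLK1 call in HCT8/DDP was lost with all 9 libraries in 1 fit. CDK1, the kinase that drives entry into mitosis, was at 106, 143 and 138 CPM in HCT8, 63, 106 and 104 CPM in HCT8/5-Fu and 86.7, 75.9 and 91.6 CPM in HCT8/DDP. It fell in HCT8/DDP, with a log2 fold change of -0.61 ± 0.12 (adjusted p = 0.00108) and had one of -0.51 ± 0.21 (adjusted p = 0.0799) in HCT8/5-Fu, where replicates 2 and 3 were at about the level of the lowest HCT8 library. CCNA2, which encodes cyclin A2, was at 194, 216 and 217 CPM in HCT8, 96.3, 232 and 215 CPM in HCT8/5-Fu and 161, 132 and 181 CPM in HCT8/DDP. All HCT8/DDP libraries lay below HCT8 (-0.40 ± 0.12, adjusted p = 0.0111, lost without HCT8/DDP replicate 2), whereas HCT8/5-Fu had a log2 fold change of -0.21 ± 0.28, and of 0.095 ± 0.094 without replicate 1. CCNB1 fell in HCT8/DDP, and CCNB2 missed the threshold there (-0.23 ± 0.10, adjusted p = 0.059). PLK4, the kinase of centriole duplication, fell in both lines, with the call lost in both without HCT8 replicate 2 or 3. In HCT8/DDP the PLK4 call was also lost without HCT8/DDP replicate 2 and with all 9 libraries in 1 fit.

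Neither cytokinesis gene passed the test. ANLN, or anillin, an organizer of the contractile ring, was at 255, 338 and 301 CPM in HCT8, 134, 277 and 271 CPM in HCT8/5-Fu and 268, 229 and 272 CPM in HCT8/DDP. ECT2, the exchange factor that activates RhoA at the equator, was at 275, 330 and 308 CPM in HCT8, 187, 291 and 290 CPM in HCT8/5-Fu and 276, 243 and 285 CPM in HCT8/DDP. The groups of both genes overlapped in both comparisons with HCT8, and log2 fold changes in HCT8/DDP were -0.22 ± 0.12 (adjusted p = 0.139) for ANLN and -0.18 ± 0.10 (adjusted p = 0.161) for ECT2.

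The direct comparison of the resistant lines asked whether their changes differed. In HCT8/DDP against HCT8/5-Fu, 0 members rose and 0 fell, against 1.51% and 0.753% of the 13012 genes tested. DESeq2 also gave 0, against 5.56% and 4.3% of all genes. In edgeR 1 member, CENPI, had an unadjusted p under 0.05, against 20.8% of all genes, with a log2 difference of 0.32 ± 0.13 (adjusted p = 0.216). Without HCT8/5-Fu replicate 1, 0 members were higher and 17 lower in HCT8/DDP, against 13.9% and 15.9% of 13162 genes. With the 8 other libraries in 1 fit the counts were 0 and 12, against 9.48% and 8.26% of 13769 genes. The median log2 difference of the members went from 0.0801 to -0.159. The groups did not overlap for 5 members with all libraries, against 27.7% of all genes, and for 32 without that library, against 56.7%. These counts therefore rested on that 1 library. The 17 were BUB1B, MAD2L1, AURKB, BIRC5, CDCA8, SKA3, KIF18B, KIF20A, TPX2, AURKA, CDC20, CDCA5, NCAPD2, CCNA2, CCNB1, CDK1 and PLK1. By role, they were 2 of 5 checkpoint genes, 3 of 4 of the chromosomal passenger complex and 4 of 6 cyclins and kinases, with 1 or 2 in each other role except cytokinesis, which had 0 of 2.

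The called members with the largest differences between the lines without that library, named after their values were seen, were MAD2L1, CDC20 and CCNB1. MAD2L1, the checkpoint protein that binds CDC20, was at 68, 99.8 and 94.5 CPM in HCT8, 50.6, 112 and 97 CPM in HCT8/5-Fu and 67.7, 62.8 and 67.5 CPM in HCT8/DDP. HCT8/DDP was below HCT8/5-Fu replicates 2 and 3 and above replicate 1, with a log2 difference of -0.40 ± 0.24 (adjusted p = 0.392) with all libraries and -0.68 ± 0.082 (adjusted p = 0.000206) without it. CDC20, the activator of the anaphase-promoting complex, was at 155, 121 and 120 CPM in HCT8, 59.9, 180 and 184 CPM in HCT8/5-Fu and 118, 108 and 135 CPM in HCT8/DDP, with -0.24 ± 0.35 (adjusted p = 0.75) and -0.61 ± 0.086 (adjusted p = 0.00046). Against HCT8, CDC20 in HCT8/5-Fu had a log2 fold change of 0.10 ± 0.35 (adjusted p = 0.845) with replicate 1 and 0.46 ± 0.12 (adjusted p = 0.011) without it. CCNB1, the cyclin B1 destroyed at anaphase, was at 118, 165 and 159 CPM in HCT8, 60.7, 160 and 160 CPM in HCT8/5-Fu and 105, 100 and 129 CPM in HCT8/DDP, with -0.19 ± 0.31 (adjusted p = 0.775) and -0.53 ± 0.094 (adjusted p = 0.00146). In each of these genes, replicate 1 of HCT8/5-Fu was the lowest of the 9 libraries. For SKA3 the log2 differences were -0.14 ± 0.26 (adjusted p = 0.808) and -0.44 ± 0.075 (adjusted p = 0.00115), and for PLK1 -0.015 ± 0.34 (adjusted p = 0.987) and -0.37 ± 0.09 (adjusted p = 0.00801).

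Other genes of the pathway were read from separate lists, beside 20.4% of all genes that rose and 18.3% that fell in HCT8/5-Fu (28.5% and 27.7% without replicate 1), and 27% and 25.5% in HCT8/DDP. Of 28 further kinetochore and centromere genes, 11 fell and 0 rose in HCT8/5-Fu (12 and 1 without replicate 1), and 18 fell and 0 rose in HCT8/DDP. SPDL1, or spindly, which brings dynein to kinetochores, was at 49.7, 71.5 and 73.6 CPM in HCT8, 21.8, 36.3 and 36.6 CPM in HCT8/5-Fu and 33.9, 25.9 and 33.5 CPM in HCT8/DDP, and its log2 fold change was -1.04 ± 0.22 (adjusted p = 0.0065) and -1.06 ± 0.15 (adjusted p = 8.33e-05). KNTC1, a subunit of the complex that recruits spindly, was at 219, 215 and 221 CPM in HCT8, 135, 144 and 136 CPM in HCT8/5-Fu and 198, 157 and 169 CPM in HCT8/DDP. HCT8/5-Fu was the lowest line here and its replicate 1 did not stand apart, with a log2 fold change of -0.66 ± 0.10 (adjusted p = 0.0014) in HCT8/5-Fu and -0.32 ± 0.10 (adjusted p = 0.018) in HCT8/DDP. Of 29 further spindle, kinesin and cytokinesis genes, 8 fell and 0 rose in HCT8/5-Fu (9 and 3 without replicate 1), and 14 fell and 3 rose in HCT8/DDP. KIF15, a kinesin that can stand in for KIF11, was at 72.4, 84.6 and 82 CPM in HCT8, 25.7, 42.8 and 41.3 CPM in HCT8/5-Fu and 51.7, 45.3 and 44 CPM in HCT8/DDP and fell, with log2 fold changes of -1.13 ± 0.19 (adjusted p = 0.0018) and -0.76 ± 0.10 (adjusted p = 4.71e-05). KIF2A, a microtubule depolymerase, was at 119, 116 and 109 CPM in HCT8, 63.2, 57.1 and 59.6 CPM in HCT8/5-Fu and 60.7, 62.7 and 60.6 CPM in HCT8/DDP, with -0.94 ± 0.11 (adjusted p = 0.000231) and -0.90 ± 0.086 (adjusted p = 2.3e-06), and in this gene HCT8/5-Fu replicate 1 was the highest library of its line. BORA, the activator of Aurora A, was at 63.4, 86.5 and 82.7 CPM in HCT8, 29.8, 49.9 and 50.4 CPM in HCT8/5-Fu and 37.7, 33.9 and 37.2 CPM in HCT8/DDP and fell, with log2 fold changes of -0.84 ± 0.21 (adjusted p = 0.0128) and -1.09 ± 0.12 (adjusted p = 7.96e-06). All libraries of both resistant lines were below HCT8 in SPDL1, KIF15, KIF2A and BORA.

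Cohesin and condensin II fell in 5 of 14 cases in HCT8/5-Fu, with or without replicate 1, and 7 of 14 in HCT8/DDP, with no rise. PDS5B, which regulates cohesin on chromatin, was at 330, 397 and 372 CPM in HCT8, 136, 184 and 171 CPM in HCT8/5-Fu and 189, 179 and 184 CPM in HCT8/DDP, with log2 fold changes of -1.17 ± 0.15 (adjusted p = 0.000437) and -0.99 ± 0.10 (adjusted p = 3.36e-06). The anaphase-promoting complex and its ubiquitin enzymes gave 1 rise and 0 falls among 18 genes in HCT8/5-Fu (4 and 1 without replicate 1), and 2 rises and 4 falls in HCT8/DDP. UBE2S, which extends ubiquitin chains on substrates of that complex, was at 83.7, 76.5 and 72.2 CPM in HCT8, 66.9, 155 and 158 CPM in HCT8/5-Fu and 130, 117 and 122 CPM in HCT8/DDP. It rose in HCT8/DDP, with a log2 fold change of 0.67 ± 0.092 (adjusted p = 6.05e-05) and showed the same step as PLK1 in HCT8/5-Fu, with 0.70 ± 0.28 (adjusted p = 0.075) with replicate 1 and 1.01 ± 0.092 (adjusted p = 4.94e-05) without it. ANAPC7, a subunit of the anaphase-promoting complex, was at 56.2, 51.9 and 52.9 CPM in HCT8, 53.4, 52 and 51.9 CPM in HCT8/5-Fu and 40.2, 36.9 and 41.2 CPM in HCT8/DDP. Its HCT8/DDP libraries alone were low, with log2 fold changes of -0.44 ± 0.094 (adjusted p = 0.00168) in HCT8/DDP and -0.037 ± 0.10 (adjusted p = 0.797) in HCT8/5-Fu.

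Regulators of mitotic entry and mitotic transcription gave 4 rises and 2 falls among 19 genes in HCT8/5-Fu (7 and 4 without replicate 1), and 5 of each in HCT8/DDP, which is near the 27% and 25.5% of all genes. FOXM1, a transcription factor of G2 and M phase genes, was at 152, 142 and 137 CPM in HCT8, 109, 300 and 295 CPM in HCT8/5-Fu and 259, 264 and 277 CPM in HCT8/DDP. All HCT8/DDP libraries and HCT8/5-Fu replicates 2 and 3 were above HCT8, and the log2 fold change was 0.89 ± 0.089 (adjusted p = 3.67e-06) in HCT8/DDP, 0.70 ± 0.32 (adjusted p = 0.114) in HCT8/5-Fu and 1.04 ± 0.087 (adjusted p = 3.06e-05) without replicate 1. MYBL2, which binds CHR promoters with the MuvB core, was at 213, 181 and 191 CPM in HCT8, 94.3, 253 and 260 CPM in HCT8/5-Fu and 223, 210 and 209 CPM in HCT8/DDP and did not pass the test in HCT8/5-Fu (0.05 ± 0.32, adjusted p = 0.914) or HCT8/DDP (0.14 ± 0.094, adjusted p = 0.246), with 0.39 ± 0.10 (adjusted p = 0.00834) in HCT8/5-Fu without replicate 1. The phosphatases of the CDC25 family, which activate cyclin-dependent kinases, did not move alike. CDC25C was at 47.9, 64.9 and 69 CPM in HCT8, 8.26, 12.6 and 15.9 CPM in HCT8/5-Fu and 21, 19.3 and 18.6 CPM in HCT8/DDP and fell, with log2 fold changes of -2.31 ± 0.24 (adjusted p = 0.000151) and -1.62 ± 0.14 (adjusted p = 7.66e-07). CDC25A, added after its values were seen, was at 44.9, 35.4 and 35.4 CPM in HCT8, 34.3, 67.5 and 69.3 CPM in HCT8/5-Fu and 40.9, 31.5 and 48.1 CPM in HCT8/DDP, with 0.56 ± 0.25 (adjusted p = 0.102) in HCT8/5-Fu, 0.82 ± 0.12 (adjusted p = 0.000579) without replicate 1 and 0.06 ± 0.15 (adjusted p = 0.759) in HCT8/DDP. CDC25B was at 82, 61.3 and 70.6 CPM in HCT8, 102, 141 and 154 CPM in HCT8/5-Fu and 138, 134 and 132 CPM in HCT8/DDP and rose, with log2 fold changes of 0.89 ± 0.17 (adjusted p = 0.00394) and 0.92 ± 0.11 (adjusted p = 1.35e-05).

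DNA replication genes gave 0 rises and 5 falls among 38 in HCT8/5-Fu, 16 and 7 without replicate 1, and 7 and 10 in HCT8/DDP. Against 18.3% and 25.5% of all genes that fell in HCT8/5-Fu and HCT8/DDP, the share that fell was lower in HCT8/5-Fu and near that of all genes in HCT8/DDP. The share that rose was below the 20.4% and 27% of all genes in these comparisons. In HCT8/5-Fu without replicate 1 the share that rose was above the 28.5% of all genes, and the share that fell below the 27.7%. GINS2, a subunit of the replicative helicase, was at 115, 122 and 124 CPM in HCT8, 32, 75.6 and 84.5 CPM in HCT8/5-Fu and 64, 60.6 and 76.8 CPM in HCT8/DDP and fell, with log2 fold changes of -0.91 ± 0.29 (adjusted p = 0.0369) and -0.84 ± 0.10 (adjusted p = 1.97e-05). In HCT8/DDP against HCT8/5-Fu, 0 of the 38 passed the test with all libraries, where 1.51% of all genes rose and 0.753% fell. Without HCT8/5-Fu replicate 1, 0 rose and 18 fell, against 13.9% and 15.9% of all genes. The medians of the replication list were -0.129 in HCT8/5-Fu, 0.177 without replicate 1 and 0.00588 in HCT8/DDP, beside -0.395, -0.119 and -0.31 for the spindle genes. Whether the difference between these lists exceeds the spread was not tested.

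A circular RNA of the NUSAP1 locus was also measured. The name hsacirc_007420 is paired with NUSAP1 as its host gene in the annotation supplied by the study. This RNA was at 2600, 836 and 951 RPM (back-splice reads scaled to the library's total) in HCT8 and at 0 in all 6 resistant libraries. These values stood for 23, 15 and 17 back-splice reads of 8834, 17941 and 17882 in HCT8. Against a floor of 3 reads over the 3 libraries of a line, and with reads pooled in HCT8 in the same way, the circular RNA was lower by at least 16.5-fold in HCT8/5-Fu and by at least 19.1-fold in HCT8/DDP. Replicate 1 of HCT8 carried much of this, and without it the ratios were 12-fold and 13.9-fold. The spread between HCT8 libraries did not enter these ratios, so they are not lower limits of the fold change. On log2(RPM + 0.1) limma gave an adjusted p of 0.601 and 0.646, over 7393 and 7385 circRNAs. On the recovered reads, a test chosen after seeing the data, edgeR gave an adjusted p of 2.97e-05 and 2.29e-06, where it called 6.19% of 226 and 3.6% of 222 circRNAs. Only these circRNAs passed the filter on low counts, and hsacirc_007420 did so through its HCT8 reads alone. The edgeR p-values were therefore not taken as support for the fall. This circular RNA was singled out by the study from the same libraries, so its fall in these reads is not independent of that choice. The study also measured it by quantitative PCR and reported very low levels in the resistant lines, which was not examined here.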

How the data were processed

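The study's methods describe rRNA depletion, RNase R digestion and strand marking of the RNA behind the 9 libraries. It is not stated whether the mRNA counts come from these RNase R-treated libraries. The sources used here name HISAT2, find_circ and DESeq or DESeq2 without versions, and the submitters' notes name a mouse build although the cells are human. The authors deposited a read count and an FPKM per gene and library for mRNAs, and RPM per library for circRNAs, from which whole reads were recovered within 0.01 of a read for 100% of values. lncRNA and miRNA tables were not used here.

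Counts were tested with edgeR 4.0.16 in R 4.3.3 (quasi-likelihood, TMM factors, filterByExpr), each comparison on its own 6 libraries, with p adjusted over all genes. The SE is the size of the log2 fold change divided by the square root of F. All 56 members passed the filter on low counts in each comparison. Alternatives were DESeq2 1.42.0, library totals, no filter, all 9 libraries in 1 fit, a replicate block and each library left out. A fit of 8 libraries, edgeR on circRNA reads and pooled circRNA reads were added after seeing the data. circRNAs were tested with limma 3.58.1 on log2(RPM + 0.1). The pipeline was tested on simulated data. Replicate numbers carry no stated meaning. The members and gene lists were chosen with earlier results of these data known. Values per library are given for NUSAP1, for the 3 members of each role with the smallest p (2 for cytokinesis), for members called against the majority direction, for some of the 3 genes of each further list with the smallest p, and for FOXM1 and MYBL2.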

Additional observations from a re-analysis of the deposited data

How the results depend on the processing

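Of the 12 other settings tried for each comparison with HCT8, 5 of the 14 members that fell in HCT8/5-Fu kept the call in every one, as did 13 of 34 in HCT8/DDP, and none of the 3 that rose there. How many of all called genes kept theirs was not counted. Without HCT8 replicate 2 or 3, the share of all genes that fell in HCT8/5-Fu went from 18.3% to 11.6% or 11.5%, so lost calls were not confined to the members. Members that fell in HCT8/5-Fu numbered 24 with library totals (21.9% of all genes). When 1 library was left out, 5 to 19 fell and 0 to 6 rose, against 11.5 to 27.7% and 12.9 to 28.5% of all genes. The fit of 8 libraries without HCT8/5-Fu replicate 1 gave 6 rises in HCT8/5-Fu (29% of all genes). It gave 12 falls in HCT8/DDP against HCT8/5-Fu (8.26% of all genes). In HCT8/DDP, rises numbered 1 with library totals (20.6% of all genes). All 9 libraries in 1 fit gave 0 rises and 13 falls, against 22.7% and 19.3%. Leaving out 1 library gave 1 to 4 rises and 18 to 38 falls, against 22.5 to 30.2% and 20.3 to 28.8%. In HCT8/DDP against HCT8/5-Fu, leaving out HCT8/5-Fu replicate 1 gave 17 falls, against 15.9% of all genes. Leaving out any other library gave 0 falls, but there 0% of all genes passed the test in either direction.

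Without HCT8/5-Fu replicate 1, the log2 fold change turned in sign for 10 of 56 members in HCT8/5-Fu against HCT8, none of them called in either fit, and for 24 of 56 in HCT8/DDP against HCT8/5-Fu, of which 2 were called. The 10 included AURKB, BIRC5 and CCNA2 (0.0815, 0.182 and 0.0947, none past the test; 0.0813, 0.182 and 0.0947 with 8 libraries in 1 fit), and over libraries left out AURKB ranged from -0.423 to 0.0815, BIRC5 from -0.352 to 0.182 and CCNA2 from -0.419 to 0.0947. Between the resistant lines, other settings also turned signs, where PLK1 did so with library totals (0.0105) and with the replicate block (0.112), and over libraries left out it ranged from -0.374 to 0.219, CCNB1 from -0.532 to 0.00364 and SKA3 from -0.439 to 0.0518. The cause was not tested.

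The deviations of same-numbered libraries correlated at 0.0533 to 0.1, -0.144 to 0.0362 and -0.26 to 0.0878 in the 3 comparisons. Those of different-numbered libraries correlated at -0.133 to 0.103, -0.0649 to 0.107 and -0.211 to 0.268. In each comparison the highest value was of different-numbered libraries, so the numbers were not taken to pair them. With the replicate block, the members that fell numbered 20 in HCT8/5-Fu (17.3% of all genes) and 32 in HCT8/DDP (23.6%).

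With 3 libraries a line, small differences can be missed, so a p above the threshold does not show that levels were alike. NUSAP1 and PRC1 rest on few counts and on reads whose assignment between overlapping genes is not stated.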
